A study of Arabidopsis thaliana with 30 samples.

Results

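The 5 plant U-box ubiquitin ligase genes PUB18 (AT1G10560), PUB19 (AT1G60190), PUB22 (AT3G52450), PUB23 (AT2G35930) and PUB24 (AT3G11840) were followed in shoots of Arabidopsis thaliana (Col-0) during progressive drought. They are 5 of the 27417 genes in the count table. All 5 passed the filter on low counts, as did 19249 genes in all. They were chosen by gene name, and the group was brought together because PUB18 had stood out in the ethanol against water contrasts of these same libraries at 0 days after drought onset (DAD) and over 0, 1, 3 and 5 DAD. Measured values of those contrasts therefore selected PUB18, and they are described here without a test.

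Seedlings had been moved from MS medium to ceramic granular soil, and the pots then stood for 3 days in trays with water or with 10 mM ethanol. Watering was stopped in both arms, and shoots were taken on 5 days, from 0 DAD through 1, 3 and 5 DAD to 7 DAD, which gave 10 groups of 3 libraries. Every library comes from wild-type plants, and every group after 0 DAD was without water. With no watered plants at 1 to 7 DAD, the effect of drought and that of plant age cannot be told apart. The study calls its replicates biological, and the number of plants per library and the hour of harvest are not given in the sources used here.

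Ubiquitin ligases, or E3 enzymes, choose the proteins to which ubiquitin is attached, and a ubiquitin-conjugating (E2) enzyme supplies the ubiquitin. In plant U-box proteins the U-box docks the E2 enzyme, and the armadillo repeats that follow it in these 5 proteins serve in binding partners. PUB18 and PUB19 are a closely related pair that dampens the response to the drought hormone abscisic acid (ABA), including stomatal closure. PUB22, PUB23 and PUB24 are known as joint brakes on the early immune response to microbial patterns, and PUB22 and PUB23 also restrain drought responses.

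The genes lie apart from each other. In the RefSeq annotation of TAIR10.1, matched by locus identifier because the deposited tables hold no coordinates, PUB18 is at chr1:3484399-3486965 and PUB19 at chr1:22198266-22200687, both on the plus strand. PUB22 is at chr3:19440617-19442427, PUB23 at chr2:15082855-15084559 and PUB24 at chr3:3736578-3738208, all on the minus strand. PUB24 has 2 exons and 1 intron, and the other 4 genes have a single exon. The encoded proteins are 697 (PUB18), 686 (PUB19), 435 (PUB22), 411 (PUB23) and 456 (PUB24) residues long. PUB18 and PUB19 share 66.4% of aligned residues and PUB22 and PUB23 share 81.5%. PUB24 shares 41.2% with PUB22 and 41.8% with PUB23, and the pairs across the 2 subgroups share 24.9% to 30%.

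Reads of the relatives could be told apart. The longest identical run between any 2 of the 5 transcripts was 26 bases, and no transcript had a copy elsewhere in the genome over 100 bases at 95% identity or more. PUB23 overlaps 1 gene on the opposite strand, and the counting used the strand of the read.

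The 250 bases before each annotated gene start are shown as a description, and no link to the levels of the 5 genes was tested. They run 5′ to 3′ on the strand of the gene, from RefSeq TAIR10.1. Capitals mark matches on either strand to 4 motifs, ACGTG (the core of the ABA-responsive element), CCGAC (the core of the dehydration-responsive element), TTGAC (the core of the W-box, the site of WRKY factors) and CGCGT (the core of the calmodulin-binding transcription activator site).
PUB18: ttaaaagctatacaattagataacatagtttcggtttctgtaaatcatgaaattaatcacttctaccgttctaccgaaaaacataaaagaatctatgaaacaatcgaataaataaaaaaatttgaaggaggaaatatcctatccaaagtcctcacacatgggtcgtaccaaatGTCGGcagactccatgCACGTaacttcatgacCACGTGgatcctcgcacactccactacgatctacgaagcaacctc
PUB19: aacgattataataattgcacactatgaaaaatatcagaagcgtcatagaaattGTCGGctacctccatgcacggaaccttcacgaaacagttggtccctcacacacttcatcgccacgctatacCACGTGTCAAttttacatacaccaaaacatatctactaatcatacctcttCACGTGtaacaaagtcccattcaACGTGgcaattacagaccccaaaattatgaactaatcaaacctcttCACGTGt
PUB22: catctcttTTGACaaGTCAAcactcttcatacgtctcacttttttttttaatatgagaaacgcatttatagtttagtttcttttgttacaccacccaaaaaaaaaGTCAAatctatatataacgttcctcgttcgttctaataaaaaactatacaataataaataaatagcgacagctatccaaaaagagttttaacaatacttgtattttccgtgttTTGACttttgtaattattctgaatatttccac
PUB23: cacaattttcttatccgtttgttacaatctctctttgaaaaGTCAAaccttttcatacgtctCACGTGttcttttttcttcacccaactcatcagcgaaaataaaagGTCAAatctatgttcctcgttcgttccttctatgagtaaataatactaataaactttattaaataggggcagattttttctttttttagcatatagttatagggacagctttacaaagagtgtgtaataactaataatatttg
PUB24: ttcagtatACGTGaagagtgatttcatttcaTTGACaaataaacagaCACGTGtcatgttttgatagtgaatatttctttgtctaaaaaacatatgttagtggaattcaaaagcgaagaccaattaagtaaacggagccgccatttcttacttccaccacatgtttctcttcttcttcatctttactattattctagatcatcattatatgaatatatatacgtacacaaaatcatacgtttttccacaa
The stretches are chr1:3484149-3484398 (PUB18), chr1:22198016-22198265 (PUB19), chr3:19442428-19442677 (PUB22), chr2:15084560-15084809 (PUB23) and chr3:3738209-3738458 (PUB24). Matches that overlap each other, as the ACGTG matches on both strands of CACGTG do, were counted as 1 site. PUB19 held 4 ACGTG sites, and 0.24% of the 27443 stretches of the same length before protein-coding genes hold 4 or more. PUB18 and PUB24 held 2 each and PUB23 held 1, while PUB22 held none. Of all stretches 22.9% hold at least 1 ACGTG site and 4.98% hold 2 or more. One ACGTG site of PUB19 overlaps its TTGAC match. PUB22 held 4 TTGAC sites, against 0.721% of all stretches with 4 or more, PUB23 held 2, and PUB19 and PUB24 held 1 each. At least 1 TTGAC site is held by 44.9% of all stretches and 2 or more by 14.1%. CCGAC stood before PUB18 and PUB19 only among the 5, as before 12% of all genes, and CGCGT before none of them and 6.87% of all genes. The shares for 4 or more use the highest count among the 5 genes and carry no test. A match is a string of letters and was not tested as a site.

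The libraries held 3625884 to 14735127 counts on genes, so that 1 count was worth 0.068 to 0.273 CPM (read counts scaled by the library's total and edgeR's TMM factor). PUB19 was covered by 13 to 2679 counts per library. The other 4 were thinly covered, with 1 to 102 counts for PUB18, 0 to 104 for PUB22, 4 to 332 for PUB23 and 11 to 274 for PUB24, which limits what could be detected for them. The 4 shoot markers (RBCS1A, LHCB2.1, CA1 and PSBO1, photosynthesis genes of leaf mesophyll) summed to 22031 to 47135 CPM in the libraries of 0 to 5 DAD. At 7 DAD they summed to at most 5452 CPM in water and 19382 to 23176 CPM in ethanol. The 3 root markers that passed the filter summed to 7.3 to 142 CPM over all libraries, and PYK10 alone had a mean of 95.3 CPM in water at 0 DAD. Fewer cells of a type and less RNA per cell cannot be told apart in these whole shoots.

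In the water arm PUB19 was called higher and the immune trio lower at 3, 5 and 7 DAD than at 0 DAD. PUB19 rose furthest, 85.8-fold by 7 DAD. PUB18 was 3.44-fold to 4.12-fold higher on the 4 later days than at 0 DAD, whose low level belongs to the contrast that selected it, and its calls at 1 and 3 DAD were lost without single libraries. PUB22, PUB23 and PUB24 were 14.6-fold, 12.2-fold and 6.06-fold lower at 7 DAD than at 0 DAD.

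PUB19 stood at 1.59, 3.18 and 4.62 CPM in the 3 water libraries of 0 DAD and at 4.26, 5.16 and 4.48 CPM at 1 DAD. It measured 12.4, 11 and 10.5 CPM at 3 DAD, and 48.7, 55.7 and 28.9 CPM at 5 DAD. At 7 DAD it was at 262, 225.6 and 305 CPM. Neighbouring days did not overlap from 1 DAD on, and only 0 and 1 DAD shared a range. Relative to 0 DAD its log2 fold change was 0.57 at 1 DAD (SE 0.651, edgeR adjusted p 0.679), then 1.87 at 3 DAD (SE 0.602, p 0.0332), 3.85 at 5 DAD (SE 0.579, p 7.45e-06) and 6.42 at 7 DAD (SE 0.612, p 2.52e-10). PUB19 was therefore called higher than at 0 DAD from 3 DAD on. The call at 3 DAD was lost without water 0 DAD replicate 1 (1.5, edgeR adjusted p 0.177).

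PUB18 was lowest in the water libraries of 0 DAD, at 1, 0.138 and 0.925 CPM, where it rested on 12, 1 and 9 counts. At 1 DAD it was at 3.27, 1.08 and 3.32 CPM, at 3 DAD at 1.42, 3.71 and 2.42 CPM, at 5 DAD at 2.70, 1.97 and 3.44 CPM, and at 7 DAD at 2.40, 2.23 and 4.45 CPM. Every later library was above all 3 of 0 DAD, and the 4 later groups overlapped each other. Against 0 DAD the log2 fold change was 1.86 at 1 DAD (SE 0.589, edgeR adjusted p 0.0444), 1.78 at 3 DAD (SE 0.596, p 0.0408), 1.87 at 5 DAD (SE 0.587, p 0.0164) and 2.04 at 7 DAD (SE 0.591, p 0.00352). The group at 0 DAD that all 4 tests share is also one arm of the contrast that selected PUB18, so its low level there is not independent of the choice. Water at 1, 3 and 5 DAD also enters the average over days that selected PUB18. The 4 p-values are therefore no independent evidence of a rise, and the fold changes are read as a description. Without water 0 DAD replicate 2 the calls at 1 and 3 DAD were lost (1.46 and 1.39, adjusted p 0.174 and 0.164), as they were without water 1 DAD replicate 1 (1.69) or replicate 3 (1.65) and without water 3 DAD replicate 2 (1.39), and the 1 DAD call was also lost with the compared groups fitted alone (adjusted p 0.110).

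PUB22 was at 8.69, 3.04 and 3.90 CPM in water at 0 DAD and at 4.06, 2.58 and 4.77 CPM at 1 DAD. At 3 DAD it was at 0.711, 0.436 and 0.255 CPM, at 5 DAD at 0.207, 0.621 and 0.744 CPM, and at 7 DAD at 0.480, 0.479 and 0.114 CPM, which were 1 to 8 counts per library. All 3 libraries of 1 DAD thus lay above all 3 of 3 DAD, and the change between these days was not tested. The 3 later groups overlapped each other. For PUB22 the log2 fold change against 0 DAD was −0.44 at 1 DAD (SE 0.687, edgeR adjusted p 0.779), −3.47 at 3 DAD (SE 0.846, p 0.00467), −3.28 at 5 DAD (SE 0.808, p 0.00252) and −3.87 at 7 DAD (SE 0.884, p 0.000369). Without water 0 DAD replicate 1, the highest library, these were 0.15, −2.88, −2.69 and −3.27, and the last 3 were still called.

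PUB23, the close relative of PUB22, was already called lower at 1 DAD. It was at 27.7, 9.40 and 7.81 CPM in water at 0 DAD, 6.34, 1.51 and 5.71 CPM at 1 DAD, 3.56, 2.07 and 2.42 CPM at 3 DAD, 1.97, 0.414 and 3.07 CPM at 5 DAD, and 0.960, 1.75 and 1.03 CPM at 7 DAD. Replicate 1 of 0 DAD was about 3 times as high as its group mates, and all 3 libraries of 0 DAD lay above every later library. The log2 fold change was −1.67 at 1 DAD (SE 0.488, edgeR adjusted p 0.0283), −2.50 at 3 DAD (SE 0.519, p 0.00106), −3.03 at 5 DAD (SE 0.529, p 5.53e-05) and −3.61 at 7 DAD (SE 0.569, p 2.47e-06). Without water 0 DAD replicate 1 these were −0.87 (adjusted p 0.406), −1.68, −2.22 and −2.80, so that the call at 1 DAD was lost, as it was without water 1 DAD replicate 2 (−1.32, p 0.141).

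PUB24 was the most abundant of the 5 genes per length at 0 DAD, at 22.9, 14.2 and 14.8 CPM. It was at 10.0, 6.02 and 3.76 CPM at 1 DAD, 8.96, 6.21 and 5.99 CPM at 3 DAD, 2.49, 2.48 and 10.8 CPM at 5 DAD, and 3.72, 1.75 and 2.96 CPM at 7 DAD. All 3 libraries of 0 DAD lay above every later library, while 5 DAD replicate 3 was more than 4 times as high as the other 2 of its group. The log2 fold change was −1.40 at 1 DAD (SE 0.403, edgeR adjusted p 0.0259), −1.30 at 3 DAD (SE 0.401, p 0.0257), −1.71 at 5 DAD (SE 0.404, p 0.00169) and −2.60 at 7 DAD (SE 0.436, p 6.70e-06). The calls at 1 and 3 DAD were lost without water 0 DAD replicate 1 (−1.14 and −1.04, adjusted p 0.154 and 0.147), without water 1 DAD replicate 3 (−1.09) and without water 3 DAD replicate 3 (−1.20). Without water 5 DAD replicate 3 the value at 5 DAD was −2.80.

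Counted together, 1 of the 5 genes rose and 2 fell at 1 DAD against water 0 DAD, when 5.81% of tested genes rose and 7.07% fell. At 3 DAD 2 rose and 3 fell, beside 9.25% and 10.4% of tested genes. At 5 DAD PUB18 and PUB19 rose and PUB22, PUB23 and PUB24 fell, beside 16.2% and 16.8%, and at 7 DAD they did so again, beside 34.5% and 35.5%. The 4 comparisons share the libraries of water 0 DAD. PUB18 is counted among the genes that rose on each day, and since its low level at 0 DAD helped to select it, nothing is read from its part in these counts.

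**Figure D1:**
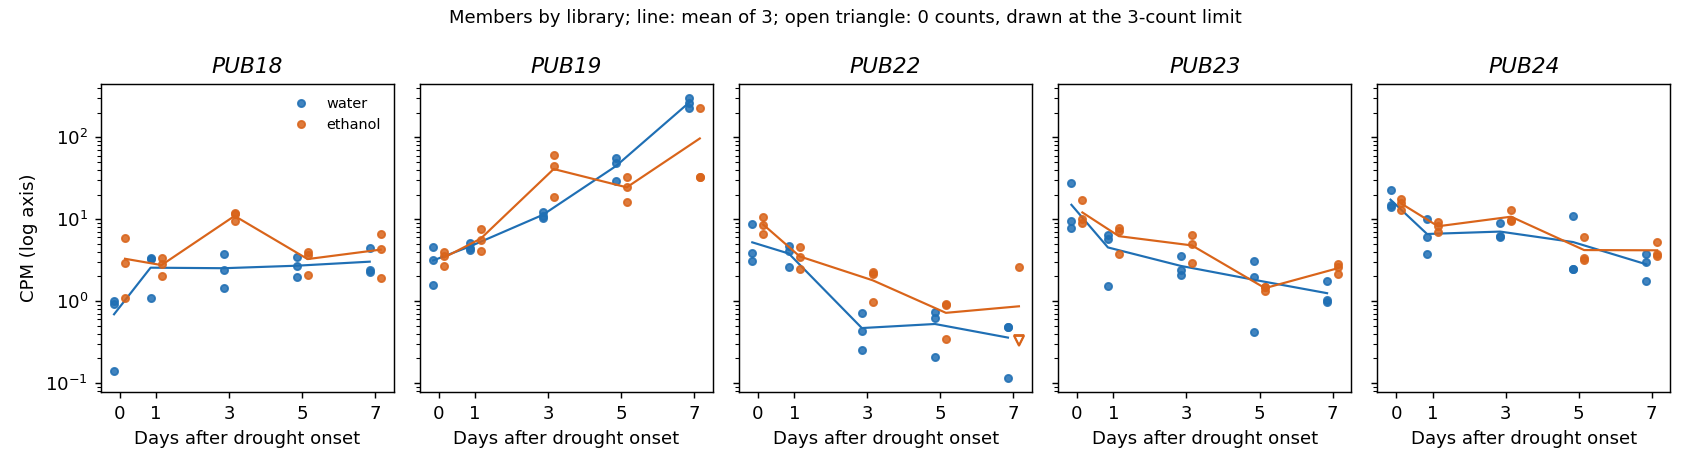
Level of each gene in CPM on a log axis against days after drought onset in the 30 libraries. Points are libraries, lines join the means of 3, blue is water and orange is ethanol, and open triangles mark the 2 libraries with 0 counts, drawn at the limit that 3 counts set. PUB19 climbs to 225.6 to 305 CPM in water at 7 DAD while PUB22, PUB23 and PUB24 decline, and PUB18 in ethanol peaks at 3 DAD with 9.43 to 12 CPM.

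The ethanol arm is described next to the water arm at 0 to 5 DAD, with no test. The most genes stood apart at 3 DAD, when 4 of the 5 had each ethanol library above the highest water library. That held for 7.34% of all tested genes at that day. PUB18 is among the 4, and 3 DAD enters the average that selected it. Nothing is therefore read from its part in this count.

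PUB18 in ethanol was at 1.09, 2.90 and 5.86 CPM at 0 DAD, resting on 4, 11 and 50 counts. It was at 2, 3.40 and 2.85 CPM at 1 DAD, 12, 11.4 and 9.43 CPM at 3 DAD, 4.01, 3.70 and 2.06 CPM at 5 DAD, and 4.33, 6.51 and 1.90 CPM at 7 DAD. The 3 libraries of ethanol 3 DAD were the highest of all 30 for this gene, and no other group reached them. Against water the log2 fold change was 2.24 at 0 DAD (SE 0.599), 0.04 at 1 DAD (SE 0.528), 2.1 at 3 DAD (SE 0.517), 0.27 at 5 DAD (SE 0.514) and 1.16 on average over these days (SE 0.270). The value at 0 DAD was 1.44 without ethanol 0 DAD replicate 3, and PUB18 was the only one of the 5 whose 0 DAD groups did not overlap, an arrangement seen upward in 7.29% of tested genes.

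PUB19 in ethanol kept close to water at 0 DAD (3.55, 3.96 and 2.70 CPM) and at 1 DAD (7.64, 4.13 and 5.56 CPM). At 3 DAD it was at 44.5, 60.0 and 18.5 CPM, all above the 10.5 to 12.4 CPM of water. At 5 DAD the ethanol libraries, at 32.6, 16.3 and 24.7 CPM, overlapped the 28.9 to 55.7 CPM of water. The log2 fold changes were 0.09 (SE 0.751), 0.33 (SE 0.609), 1.86 (SE 0.508) and −0.84 (SE 0.473) at the 4 days, and 0.36 on average (SE 0.298). In ethanol its mean was 41 CPM at 3 DAD and 24.5 CPM at 5 DAD, with overlapping libraries, and in water 11.3 and 44.4 CPM, with none. The change from 3 to 5 DAD was not tested in either arm, nor was the difference between the arms.

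PUB22 in ethanol was at 10.7, 8.44 and 6.68 CPM at 0 DAD, 2.47, 3.49 and 4.56 CPM at 1 DAD, 2.24, 2.16 and 0.968 CPM at 3 DAD and 0.340, 0.887 and 0.925 CPM at 5 DAD. The 3 water libraries of 3 DAD lay below those of ethanol 3 DAD and in one range with those of ethanol 5 DAD. The log2 fold change against water was 0.70 at 0 DAD (SE 0.686), −0.15 at 1 DAD (SE 0.698), 1.92 at 3 DAD (SE 0.878) and 0.36 at 5 DAD (SE 0.896), with 2 to 19 counts per library behind the value at 3 DAD.

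PUB23 and PUB24 differed less between the arms. PUB23 in ethanol was at 17.2, 10.0 and 9.02 CPM at 0 DAD, 3.76, 7.72 and 7.13 CPM at 1 DAD, 6.48, 4.96 and 2.90 CPM at 3 DAD, and 1.5, 1.48 and 1.34 CPM at 5 DAD. PUB24 was at 17.8, 15.6 and 13 CPM at 0 DAD, 7.05, 8.27 and 9.27 CPM at 1 DAD, 9.54, 12.8 and 9.80 CPM at 3 DAD, and 3.13, 6.06 and 3.39 CPM at 5 DAD. At 3 DAD PUB24 was above water in all 3 libraries (log2 fold change 0.61, SE 0.406) and PUB23 overlapped it (0.84, SE 0.528), and at 0, 1 and 5 DAD both genes overlapped between the arms, with log2 fold changes from −0.37 to 0.39. Single libraries turned some of these values. Without water 0 DAD replicate 1 the value at 0 DAD was 1.29 for PUB22 and 0.48 for PUB23, and without water 5 DAD replicate 3 that at 5 DAD was 0.71 for PUB24 and 0.27 for PUB23. Averages over the 4 days were 0.71 (SE 0.398) for PUB22, 0.14 (SE 0.261) for PUB23 and 0.09 (SE 0.204) for PUB24.

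**Figure D2:**
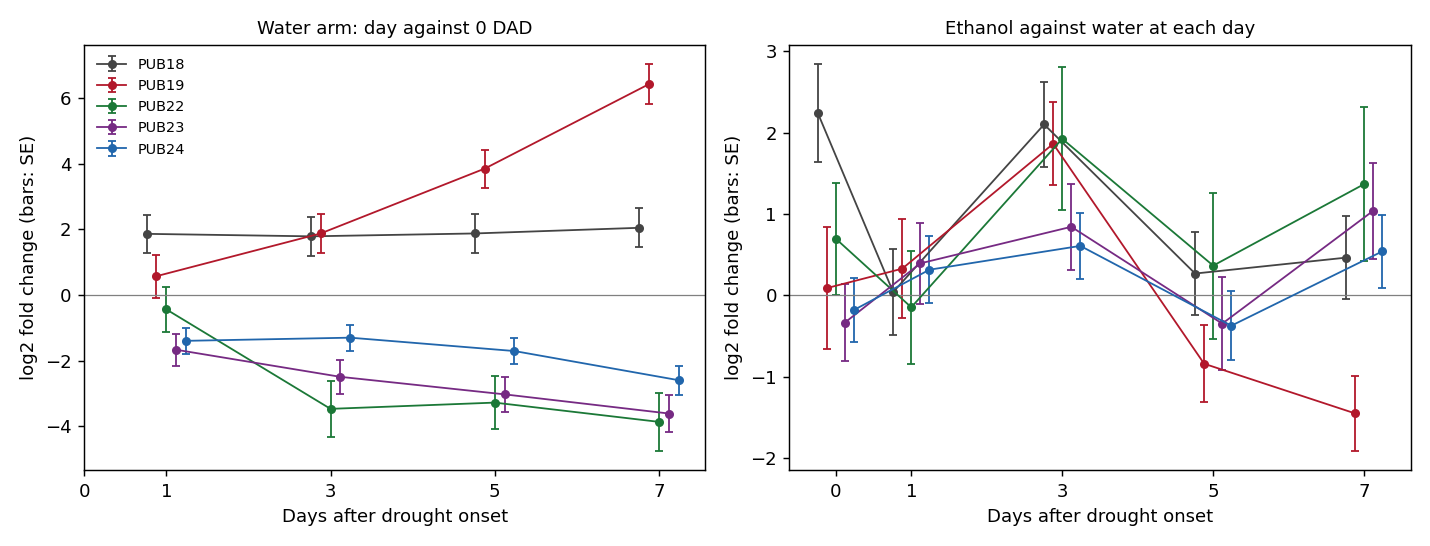
Log2 fold changes of the 5 genes with standard errors against days after drought onset, on the left each water day against water 0 DAD and on the right ethanol against water at the same day. On the left PUB19 reaches 6.42 and PUB22 −3.87 at 7 DAD, and on the right PUB18, PUB19 and PUB22 lie between 1.86 and 2.1 at 3 DAD and PUB19 lies at −1.45 at 7 DAD.

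At 7 DAD the arms could be tested, and 1 of the 5 genes was called, when 60.5% of all tested genes were. PUB19 was lower in ethanol, and 28.6% of tested genes were called lower and 32% higher. Ethanol replicates 1, 2 and 3 had 32.7, 225.2 and 32.9 CPM of PUB19 against 262, 225.6 and 305 CPM in water. Replicate 2 was thus within 1 CPM of the lowest water library, and the other 2 were just above the highest library of ethanol 5 DAD (32.6 CPM). The log2 fold change was −1.45 (SE 0.461, edgeR adjusted p 0.00868), and −2.99 without ethanol replicate 2 (p 3.34e-08).

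That library also differed from its group in drought markers. The summed level of the 12 ABA and drought markers was 1188, 6101 and 1409 CPM in ethanol replicates 1, 2 and 3 and 48913 to 63035 CPM in water, and its part in the PUB19 value was not tested. Its shoot markers, at 20036 CPM, lay between those of the other 2 ethanol libraries. Its PUB19 level thus neared that of water while its marker sum lay between those of the other ethanol libraries and those of water. By the median log2 CPM of the 12 markers it lay nearer to water. That median was 8.46 in replicate 2, 5.55 and 5.65 in ethanol replicates 1 and 3, and 9.67 to 9.97 in water. How far this library departs in PUB19 from its markers thus depends on the summary used.

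**Figure D3:**
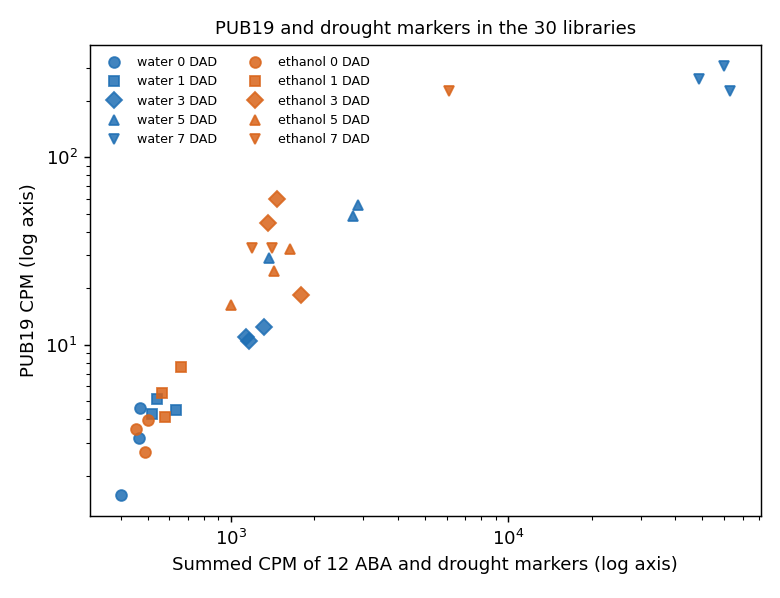
PUB19 in CPM against the summed CPM of the 12 ABA and drought markers in the 30 libraries, both on log axes, with colour for the arm and symbol for the day. The water 7 DAD libraries lie at the upper right, ethanol 7 DAD replicate 2 lies at 225.2 CPM of PUB19 and 6101 CPM of the markers, and the other 2 ethanol 7 DAD libraries lie among those of 3 and 5 DAD.

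The other 4 genes had positive values at 7 DAD that did not pass the test. PUB18 had a log2 fold change of 0.46 (95% interval −0.59 to 1.51, edgeR adjusted p 0.465), and its groups overlapped. PUB24, at 5.20, 3.59 and 3.71 CPM in ethanol, had 0.54 (−0.39 to 1.47, p 0.325). PUB23 was at 2.17, 2.81 and 2.59 CPM in ethanol, above all 3 water libraries, and had 1.04 (−0.17 to 2.25, p 0.141), or 1.25 when scaled by library totals alone (p 0.0844). At that day 30.5% of all tested genes had their ethanol libraries above those of water in this way.

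PUB22 at 7 DAD was decided by 1 library. Ethanol replicates 1 and 2 had 0 counts, which allows up to 0.325 and 0.337 CPM, and replicate 3 had 30 counts or 2.59 CPM. Water had 4, 3 and 1 counts. The log2 fold change was 1.37 (95% interval −0.58 to 3.31, adjusted p 0.231), it was called without ethanol replicate 1 (1.94, p 0.0701) or replicate 2 (1.93, p 0.0671), and it turned to −4.62 (p 0.0151) without replicate 3, a fitted value against 2 libraries with no count.

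Between 5 and 7 DAD PUB19 rose in both arms, by 2.57 on the log2 scale in water (SE 0.481, edgeR adjusted p 3.76e-05), where 31.8% of genes rose, and by 1.96 in ethanol (SE 0.479, p 0.0128), where 5.34% rose. The rise in ethanol rested on replicate 2 of 7 DAD, without which it was 0.39 (p 0.720), and it was not called with the 2 groups fitted alone (1.96, p 0.182). PUB24 fell in water (−0.89, SE 0.445, p 0.0873), where 32.7% of genes fell, although the groups overlapped. That value was 0.17 without water 5 DAD replicate 3 (p 0.758), and the call was also lost without water 7 DAD replicate 2 (−0.69) or replicate 3 (−0.92) and with the groups fitted alone (−0.93, p 0.213).

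The difference of the 5 to 7 DAD change between the arms was called for 0 of the 5 genes and for 47.1% of all tested genes. With edgeR 0 of the 5 had an unadjusted p under 0.05, and DESeq2 also called 0. PUB19 had a difference of −0.61 (95% interval −1.95 to 0.73, adjusted p 0.490), which became −2.15 (p 0.000236) without ethanol 7 DAD replicate 2. PUB23 had 1.39 (−0.30 to 3.08, p 0.189), and was called without water 5 DAD replicate 2 (1.85, p 0.0615). PUB22 had 1.00 (−1.68 to 3.68, p 0.580), and without ethanol 7 DAD replicate 3 a fitted −4.99 (p 0.0219).

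The make-up of the 5 genes turned over during drought. Levels of different genes were set side by side as CPM per kilobase of annotated gene, introns included, which takes reads to scale with gene length. That was not tested for these libraries, and the shares below hold only as far as it is true. Without the division the longest genes, PUB18 (2567 bases) and PUB19 (2422 bases), would hold larger shares. In water at 0 DAD the order of the 5 genes was the same in undivided mean CPM, from 17.3 (PUB24) to 0.689 (PUB18). At 7 DAD in water PUB18 was above PUB24 in CPM (3.03 and 2.81) and below it per kilobase (1.18 and 1.72). Per kilobase PUB24 held 46.5% ± 6.65 and PUB23 34.1% ± 10.0 of the summed level in water at 0 DAD (SD, n = 3). PUB22 held 11.6% ± 1.80, PUB19 6.66% ± 4.45 and PUB18 1.13% ± 0.842. At 7 DAD in water PUB19 held 96.6% ± 0.189, with 96.4% to 96.8% in the 3 libraries.

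In ethanol at 7 DAD PUB19 held 77.3% ± 14.1 of the sum, from 68.7% to 93.6%, and the other 4 genes shared the rest. At 3 DAD PUB19 held 51.1% ± 10.9 in ethanol and 39.7% ± 1.93 in water, and PUB18 14.5% ± 4.03 and 8.63% ± 4.39, and the ranges of the arms overlapped for both genes. PUB18 was the least abundant of the 5 per length in water at 0 DAD (0.268 CPM per kb), and PUB22 was the least abundant at 7 DAD in both arms (0.197 in water and 0.476 in ethanol).

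**Figure D4:**
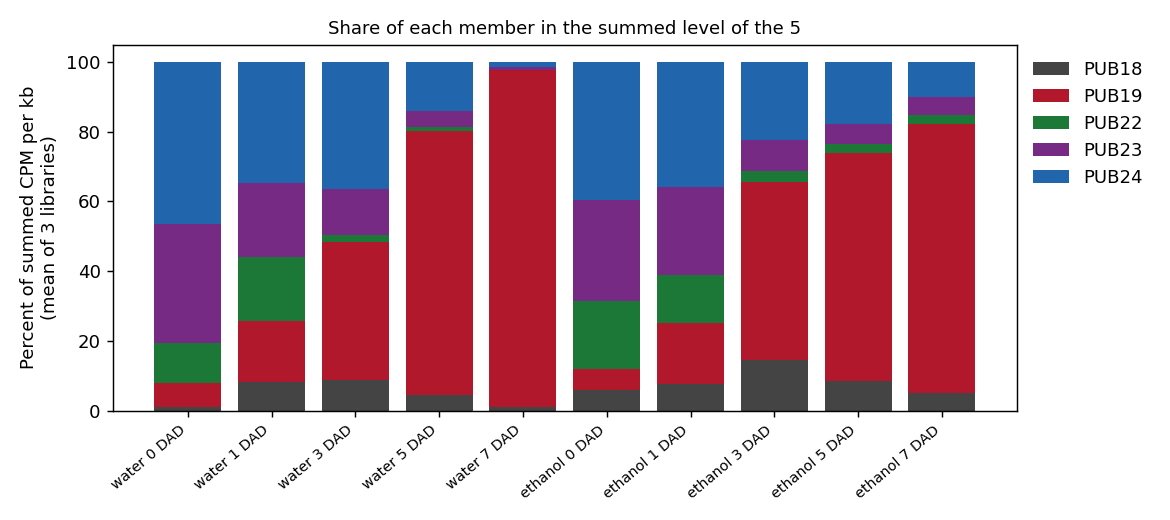
Share of each gene in the summed CPM per kilobase of the 5 genes, as the mean of 3 libraries in each of the 10 groups (stacked bars, percent). In water PUB19 grows from 6.66% at 0 DAD to 96.6% at 7 DAD, while in ethanol it reaches 77.3% at 7 DAD.

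Over the 10 groups the order of mean levels differed by gene. PUB19 was highest in water 7 DAD (264 ± 40 CPM), then in ethanol 7 DAD (96.9 ± 111), water 5 DAD (44.4 ± 13.9), ethanol 3 DAD (41 ± 21) and ethanol 5 DAD (24.5 ± 8.16). Of these neighbours water 7 DAD stood clear of the next group by less than 1 CPM in its nearest library, and the others overlapped. PUB18 was highest in ethanol 3 DAD (11 ± 1.36) and lowest in water 0 DAD (0.689 ± 0.478), and the 8 groups between had means of 2.52 to 4.25 CPM and overlapped. PUB22, PUB23 and PUB24 had their 2 highest means at 0 DAD, in water and ethanol, with overlap between the arms.

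Across the 30 libraries PUB22, PUB23 and PUB24 followed each other most closely among the 5. Pearson's r of log2 CPM was 0.83 for PUB23 with PUB24, 0.78 for PUB22 with PUB23 and 0.70 for PUB22 with PUB24. PUB19 was opposed to these 3, with r from −0.77 to −0.71. PUB18 followed none of them closely, with 0.41 for PUB19 and −0.28 to −0.15 for the trio. The libraries share their groups and days, so that these values describe the time course and carry no test.

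The genes whose log2 CPM was most like each ligase over the 30 libraries were taken from 17591 ranked genes. For PUB19 they were DIP2 (r 0.97), AT5G15190 (0.96), ABI1 (0.96), ERD14 (0.96) and HB-7 (0.96). ABI1 is a phosphatase that restrains ABA signaling, ERD14 is a dehydrin and HB-7 is a homeobox factor known from drought. Since these genes were picked for their likeness over the same libraries, their fold changes restate the choice and are given as a description. ABI1 had a log2 fold change of 3.23 (SE 0.265) in water 7 DAD against water 0 DAD and −1.20 (SE 0.244) in ethanol against water at 7 DAD.

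For PUB23 they were TCH3 (r 0.92), CPK28 (0.91), PUP18 (0.90), ERD6 (0.90) and AT2G24600 (0.90). TCH3 is a calmodulin-like protein known from touch responses and CPK28 is a calcium-dependent kinase that limits immune signaling. For PUB22 they were AT2G25735 (0.91), SHV3 (0.88), CSLA03 (0.88), CYP81F2 (0.87) and BT5 (0.87). CYP81F2 makes defensive indole glucosinolates. For PUB24 they were AT4G27300 (0.94), PLA2A (0.92), FUT4 (0.91), XBAT34 (0.91) and AT4G18250 (0.91), of which XBAT34 is itself annotated as a ligase of the XBAT group. For PUB18 the closest genes reached only 0.65 to 0.69 (AT3G25400, AT2G20920, AT5G63290, AT5G49580 and ETFALPHA), and ETFALPHA fell to place 235 by Spearman's rho.

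The annotation named 18 other genes as plant U-box genes by symbol or synonym, of which 17 passed the filter. Family members not so named were not looked at. In water 7 DAD against water 0 DAD 34.5% of all tested genes rose and 35.5% fell. Of the 17 genes 7 rose, 5 fell and 5 were not called in that comparison. Their median log2 fold change was −0.24 beside −0.01 over all tested genes. PUB43 (1.72, edgeR adjusted p 2.22e-07) and PUB17 (1.60, p 9.01e-08) rose most, and PUB44 (−1.62, p 3.05e-05) and PUB25 (−1.16, p 0.00790) fell most. The 17 genes found by name thus lay between −1.62 and 1.72, beside 6.42 for PUB19. In ethanol against water at 7 DAD 3 were higher, 7 lower and 7 not called, led by PUB29 (2.35, p 8.73e-07) and PUB25 (1.51, p 0.00101) upward and PUB17 (−1.77, p 2.85e-08) and PUB45 (−1.76, p 3.95e-06) downward. Among all tested genes 32% were higher and 28.6% lower.

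Among 8 known targets and partners of the 5 ligases, 5 rose and 3 fell in water 7 DAD against water 0 DAD (median 0.68). The shares over all tested genes were 34.5% and 35.5%. EXO70B2, an exocyst subunit that PUB22 marks for degradation, fell by 2.85 (edgeR adjusted p 2.10e-08), and EXO70B1, the related target of PUB18, fell by 0.40 (p 0.0257). MPK3, a kinase that phosphorylates PUB22, fell by 1.72 (p 1.67e-07). PUB22 and PUB23 are known to act on the proteasome subunit RPN12A and on the ABA receptor PYL9. The proteasome subunits RPN12A (0.61, p 1.84e-05) and RPN6 (0.98, p 2.64e-08), the E2 enzymes UBC8 (0.75, p 3.89e-05) and UBC10 (0.90, p 2.45e-09) and PYL9 (0.75, p 0.00550) rose.

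In ethanol against water at 7 DAD 2 of these 8 were higher (MPK3 at 0.99, edgeR adjusted p 0.000465, and UBC8 at 0.37, p 0.0256) and 4 lower. The lower ones were RPN12A (−0.86, p 1.53e-07), RPN6 (−0.79, p 1.56e-06), UBC10 (−0.53, p 2.44e-05) and EXO70B1 (−0.49, p 0.00925). EXO70B2 had 0.55 (p 0.196) and PYL9 0.43 (p 0.104). Among all tested genes 32% were called higher and 28.6% lower.

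Most of the listed immune genes were called lower in water at 7 DAD than at 0 DAD, when 35.5% of all tested genes were called lower. MPK3, PUB12 and PUB13 stand in this list and in another. CPK28 and CYP81F2, which are in the counts below, were also picked for likeness to PUB23 and PUB22. Their fold changes restate that choice and are given as a description. Of 12 genes of the FLS2 receptor complex and early immune signaling, 9 fell, 1 rose and 2 were not called at 7 DAD against 0 DAD (median −1.14). FLS2, the receptor of bacterial flagellin, went from 31.7 ± 1.37 to 1.54 ± 0.833 CPM (log2 fold change −4.29, edgeR adjusted p 1.05e-10). CPK28 had −3.03 (SE 0.244) and MPK6 0.73 (edgeR adjusted p 4.37e-06). Of 18 early response genes to microbial patterns, touch and wounding, 13 fell, 3 rose and 2 were not called (median −2.19). CYP81F2 (−6.36, SE 0.651) and ERF6 (−5.88, edgeR adjusted p 1.30e-07) were lowest, and TCH4 (3.00, p 5.19e-07) and ZAT10 (2.94, p 3.81e-06) highest. The summed level of the 18 went the other way, from 670 to 1264 CPM at 0 DAD to 1528 to 2316 CPM at 7 DAD. The 1264 CPM were those of water 0 DAD replicate 1, beside 670 and 722 CPM in replicates 2 and 3. That library was also the highest of its group for PUB22, PUB23 and PUB24, and a link was not tested.

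In ethanol against water at 7 DAD 5 of the 12 immune signaling genes were higher and 4 lower (median −0.03), with FLS2 at 2.45 (edgeR adjusted p 7.44e-06), RBOHD, the NADPH oxidase of the oxidative burst, at 1.57 (p 0.000523), MPK6 at −1 (p 4.52e-08) and BIK1 at −0.87 (p 0.00715). Among all tested genes 32% were higher and 28.6% lower. Of the 18 early response genes 6 were higher, 3 lower and 9 not called (median 0.73), with ERF6 at 4.81 (p 8.22e-06), WRKY53 at 3.40 (p 6.88e-06), TCH4 at −3.71 (p 3.81e-08) and ZAT10 at −2.58 (p 2.79e-05). The summed level of the 18 was lower in ethanol, at 392 to 650 CPM against 1528 to 2316 CPM in water. At 3 DAD, where PUB18, PUB19, PUB22 and PUB24 stood above water in every library, 16 of these 18 had a positive log2 fold change with a median of 1.85, beside 0.00 over all tested genes. Their summed level at that day was 1624, 1305 and 388 CPM in ethanol replicates 1, 2 and 3 and 232 to 291 CPM in water. The median log2 CPM of the 18 was 6.32, 6.16 and 3.63 in these ethanol replicates and 3.44 to 3.93 in water. Replicate 3 thus lay within the water range by this median. These values are given as a description, and their part in the levels of the ligases was not tested.

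The drought markers rose in water 7 DAD against water 0 DAD, as PUB19 did. At 3 DAD the log2 fold change of ethanol against water was 1.86 for PUB19 and 0.39 in the median of the markers. Neither value was tested. All 12 ABA and drought markers rose in water 7 DAD against water 0 DAD (median 5.85), with LEA7 (8.41, edgeR adjusted p 3.93e-13) and RAB18 (7.87, p 9.10e-12) highest. At 7 DAD 11 were lower in ethanol and 1 was not called (median −2.79), with LEA7 at −6.58 (p 3.24e-11) and RAB18 at −5.26 (p 5.45e-09). The rise of PUB19, 6.42, was above the median of that list, in which ABI1 was also picked for likeness to PUB19. Of all tested genes 34.5% rose in water 7 DAD against water 0 DAD, and 28.6% were lower in ethanol at 7 DAD.

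In water 7 DAD against water 0 DAD 34.5% of all tested genes rose and 35.5% fell. Of 18 other ligases and regulators linked to drought or ABA, 9 rose, 3 fell and 6 were not called in that comparison (median 0.55). AIRP2 (5.33, edgeR adjusted p 1.17e-11) and AIRP1 (4.30, p 9.55e-11), RING ligases that promote ABA responses, rose most. PUB44 (−1.62, p 3.05e-05) and MIEL1 (−1.60, p 1.18e-08), a ligase that removes a MYB factor of defense, fell most. In ethanol against water at 7 DAD 10 of the 18 were lower, 3 higher and 5 not called (median −0.83), with RGLG1 (−3.27, p 3.69e-13) and AIRP2 (−2.39, p 3.83e-06) lowest and MIEL1 (1.04, p 2.17e-05) and RHA2B (0.89, p 0.0103) highest. Among all tested genes 28.6% were lower and 32% higher. The shoot markers moved opposite to PUB19 in both comparisons, 4 of 4 lower in water at 7 DAD against 0 DAD (median −3.00) and 4 of 4 higher in ethanol than in water (median 2.32), and their part in the values of the ligases was not tested. Of the 3 root markers tested, IRT1 rose (4.03, edgeR adjusted p 0.0121) and PYK10 fell (−3.44, p 1.02e-08) in water 7 DAD against water 0 DAD (median −0.97). At 7 DAD PYK10 (2.12, p 3.30e-05) and PHT1.4 (1.44, p 0.0843) were higher in ethanol than in water (median 1.44).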

How the data were processed

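Total RNA from 30 Arabidopsis shoot samples was made into Lasy-Seq libraries. Per the study's methods and the labels, the authors made the deposited read counts from read 1 with bcl2fastq, Trimmomatic, HISAT2 against TAIR10 and featureCounts, by gene and strand, with a read that overlaps several genes counted for each. The second deposited table holds the same counts divided by DESeq2 size factors, a normalised signal, and was used only to check the order of groups. The only difference it made was that ethanol 5 and 7 DAD changed places for PUB24.

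The raw counts were analysed with R 4.3.3 and edgeR 4.0.16 (filterByExpr by group, TMM factors, quasi-likelihood F test on all 30 libraries with 1 mean per group, no replicate block). P-values were adjusted by Benjamini-Hochberg over all 19249 tested genes and called under 0.1. CPM used TMM-scaled totals, and log2 CPM a prior count of 2. P-values measure the spread between the deposited samples. Tested genes held 99.9% of counts.

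The genes and lists were chosen with earlier results of these data known. From each list the 2 top and 2 bottom called genes by fold change were named, both between the arms at 7 DAD and in water 7 against 0 DAD. Named for each ligase were also the 5 genes with the highest Pearson's r among those with a mean of at least 10 counts. Symbols, positions and sequences came from RefSeq TAIR10.1, in which 26720 of 27417 identifiers had an entry, and copies were searched with BLAST 2.17.0. Alternatives were DESeq2 1.42.0, library totals, no filter, the compared groups alone, a replicate block and leaving out each library.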

Additional observations from a re-analysis of the deposited data

Results flagged for a closer look

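PUB19 was flagged because its ethanol libraries lay on opposite sides of water at 2 of the days. At 3 DAD all 3 ethanol libraries were above all 3 water libraries (log2 fold change 1.86), and at 7 DAD all 3 were below (−1.45). The arrangement at 3 DAD was seen in 7.34% of all tested genes and that at 7 DAD in 29.1%. The difference between the 2 days was not tested, since the contrast at 3 DAD belongs to those that brought the genes together. At 7 DAD ethanol replicate 2 was below the lowest water library by less than 1 CPM. Of 75 pairs of effects looked at in the 5 genes, this was the only one with such a crossing.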

How the results depend on the processing

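Replicate numbers did not pair the libraries (mean r of same-numbered libraries 0.0013 over 135 pairs, and 11 of 30 libraries agreed best with their own number). With a replicate block the counts of called genes stayed close, for example 11601 in ethanol against water at 7 DAD, and no call of the 5 genes changed, nor with DESeq2 or no filter. Library totals moved the median of all genes by 0.209 at 7 DAD between the arms, 0.151 in water 5 against 0 DAD, −0.138 in water 7 against 5 DAD and 0.202 in the difference of changes. The share of calls that were higher went from 52.8% to 63.0%, 49.2% to 64.8% and 54.8% to 65.6% in the first, second and last of these and from 62.8% to 77.0% in ethanol 7 against 5 DAD. PUB23 became the second of the 5 genes called at 7 DAD, so that 2 were called. With the compared groups fitted alone, ethanol 7 against 5 DAD had 790 called genes (1636 otherwise, with 74.9% of them higher) and 0 of the 5, and water 7 against 5 DAD had 1 of the 5. There 6 values of PUB22 and 1 of PUB18 could not be fitted because the gene did not pass the filter.

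Leaving out each library gave 1374 to 2485 called genes in water 1 against 0 DAD, and 797 to 2174 in ethanol 7 against 5 DAD. Of the 5 genes it left 1 to 2 called in ethanol against water at 7 DAD, 1 to 3 in water 1 against 0 DAD, 3 to 5 in water 3 against 0 DAD, 1 to 2 in water 7 against 5 DAD, 0 to 2 in ethanol 7 against 5 DAD and 0 to 1 in the difference of changes. PUB19, PUB22, PUB23 and PUB24 stayed called in water 5 and 7 against 0 DAD in these fits. PUB18 did so too, but its low level at 0 DAD helped to select it. Nothing is therefore read from its part in the counts against water 0 DAD. Directions turned within these ranges. PUB22 had −4.62 to 1.94 in ethanol against water at 7 DAD, −5.61 to 0.95 in ethanol 7 against 5 DAD and −4.99 to 1.57 in the difference, the lowest each without ethanol 7 DAD replicate 3, and −0.71 to 0.15 in water 1 against 0 DAD. PUB18 had −0.22 to 0.36 in water 7 against 5 DAD, −0.088 to 0.72 in ethanol 7 against 5 DAD and −0.23 to 0.59 in the difference. PUB24 had −1.22 to 0.17 in water 7 against 5 DAD, −0.17 to 0.34 in ethanol 7 against 5 DAD and −0.15 to 1.26 in the difference. The cause was not tested. Depth limits PUB18 and PUB22 most, with 957 and 631 counts over all libraries.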
